A study of Mus musculus with 4 samples.

Results

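The cells described here are class II-rich cells of mouse hindlimb tissue, labelled dendritic-like: 60 of 1241 filtered cells in a single-cell RNA sequencing series. Members were chosen by their own counts of UMIs (unique molecular identifiers, each counted as 1 captured RNA molecule): at least 200 detected genes, no more than 20% of UMIs from mitochondrial genes, and class II genes in plenty. The last meant that H2-Aa, H2-Ab1, H2-Eb1 and Cd74 together made up at least 1% of its UMIs. Members also had fewer than 3 UMIs of the C1q genes C1qa, C1qb and C1qc, none of the B cell gene Cd79a and fewer than 3 of the endothelial genes Pecam1 and Cdh5. The collagen genes Col1a1, Col1a2 and Col3a1 with Dcn had to be under 1% of UMIs, and 7 neutrophil genes under 2%.

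The series holds 4 libraries. They are the injured limb of Ddr2 slie/slie mice, the injured limb of littermate controls, the uninjured limb of slie/slie mice and the uninjured limb of littermate controls. Ddr2 encodes a receptor for fibrillar collagen, and slie is a spontaneous deletion in it that these mice carry in all cells. All mice, controls included, were burned on the back, over 30% of the body surface, and had the left Achilles tendon cut, so the uninjured limbs also come from burned mice. Tissue around the tendon was taken at day 7, pooled from 2 mice per library and digested with collagenase and dispase. Each group is therefore 1 library, no test between groups exists, and every interval below is a 95% interval for counting error only.

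MHC class II molecules present peptides from engulfed proteins to CD4 T cells. H2-Aa with H2-Ab1, and H2-Eb1 with its own partner, encode class II chains, Cd74 encodes the invariant chain that fills the groove until peptides replace it, and the H2-DM proteins catalyse that exchange. Conventional dendritic cells come in a cDC1 type that depends on Irf8 and Batf3 and a cDC2 type marked by genes such as Sirpa and Clec10a, and both need the growth factor receptor Flt3. Monocytes that enter injured tissue through the chemokine receptor Ccr2 can take up class II as well, so a high class II level alone does not separate these lineages.

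Class II genes share a promoter module in which an X box lies upstream of a Y box, the binding letters of NF-Y. The stretches directly upstream of the start of H2-Aa, H2-Eb1 and H2-DMb1 are shown because 2 of these genes define the cells and the third belongs to the peptide loading machinery described below. Capitals mark the letters GCAAC searched as X box core and CCAAT, read ATTGG on the other strand, as Y box core.
H2-Aa, chr17:34287824-34287953, minus strand: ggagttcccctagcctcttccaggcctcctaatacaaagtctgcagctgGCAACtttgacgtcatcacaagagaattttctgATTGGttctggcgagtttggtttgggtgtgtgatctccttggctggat
H2-Eb1, chr17:34305737-34305866, plus strand: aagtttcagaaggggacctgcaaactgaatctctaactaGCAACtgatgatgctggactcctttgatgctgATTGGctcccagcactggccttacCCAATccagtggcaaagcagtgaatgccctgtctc
H2-DMb1, chr17:34153061-34153190, plus strand: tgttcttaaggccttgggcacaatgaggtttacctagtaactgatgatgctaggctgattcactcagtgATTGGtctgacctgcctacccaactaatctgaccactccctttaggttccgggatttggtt
The sequences are RefSeq's for GRCm38.p6, the mm10 assembly. Of 32851 promoters in that table, each taken from 250 bases before to 50 after the start, 37.4% hold CCAAT and 35.2% GCAAC on either strand. GCAAC starting 30 to 33 bases before ATTGG was found in 66 of them, or 0.201%, and among these are H2-Aa, H2-Eb1, H2-Eb2, H2-Oa and H2-Ob. That spacing was chosen after these promoters had been read. H2-DMb1 holds ATTGG starting 61 bases before its start with no GCAAC at that spacing, against 48 bases in H2-Aa and 59 in H2-Eb1. At that spacing H2-DMb1 has GTAAC, which differs from GCAAC in a single letter. The search counted exact letters only, so it cannot tell whether an X box is absent there.

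Nearly all members came from injured limbs. The slie/slie injured library held 16 members of 246 filtered cells, 6.50% (exact Clopper-Pearson interval 3.76 to 10.3%), and the control injured library 43 of 751, 5.73% (4.17 to 7.64%). In the slie/slie uninjured library 1 of 184 cells was a member, 0.543% (0.0138 to 2.99%), and in the control uninjured library 0 of 60, with an upper bound of 5.96%. The shares of the injured slie/slie and control libraries lie inside each other's intervals. The C1q limit removed most class II-rich cells that were not members: 2 of 19 in slie/slie injured, 20 of 64 in control injured, 3 of 4 in slie/slie uninjured and the single 1 in control uninjured. No member was called a doublet, and no member carried a barcode that libraries shared (1 barcode was shared, between control injured and control uninjured).

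Depth was unequal among members. The median was 1404.5 UMIs per cell in slie/slie injured (515 to 14186) and 1448 in control injured (516 to 16857). Summed over members this gave 49381 UMIs in slie/slie injured and 169750 in control injured. The 2 deepest cells held 57.0% of the slie/slie sum, against 19.2% of the control sum, so a summed value of the slie/slie library is largely the value of a pair of cells. Beside summed levels the number of cells is therefore given.

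The 4 class II genes chose the members, and their levels are a description. They made up a median of 3.88% of a member's UMIs in slie/slie injured (1.25 to 8.32%) and 5.56% in control injured (1.21 to 17.9%). Just inside the 1% limit were cells at 1.25, 2.00 and 2.04% in slie/slie injured and at 1.21, 1.41 and 1.44% in control injured. Just outside were cells at 0.760, 0.740 and 0.707% in slie/slie injured and at 0.993, 0.935 and 0.808% in control injured. H2-Aa (chr17:34282744-34287823, mm10) had 674 UMIs in 15 of 16 slie/slie injured members and 1952 UMIs in 42 of 43 control injured members. Cd74 was found in every member, with 1443 UMIs in slie/slie injured and 5379 in control injured. In the other filtered cells H2-Aa reached 67.6 CPM (UMIs per 1000000 UMIs of the summed cells) in slie/slie injured and 149 CPM in control injured, against 13649 and 11499 CPM in the members of the same libraries.

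**Figure D1:**
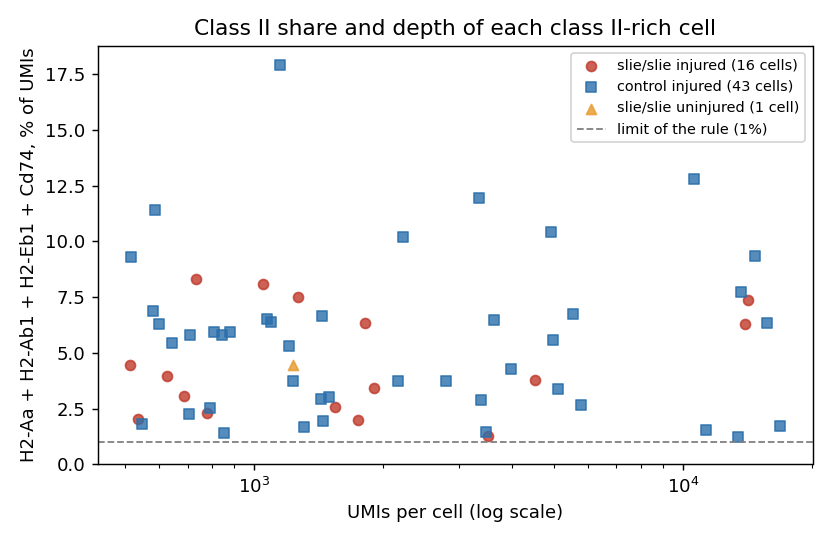
Share of UMIs from H2-Aa, H2-Ab1, H2-Eb1 and Cd74 (vertical, percent) against UMIs per cell (horizontal, log scale), 1 point per member of the slie/slie injured, control injured and slie/slie uninjured libraries, with the 1% limit dashed. Both injured libraries span shallow and deep cells, from 515 to 14186 UMIs in slie/slie injured and from 516 to 16857 in control injured.

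The name dendritic-like rests on Flt3 and Clec10a, the markers given with it that the rule did not use. Flt3 (chr5:147330741-147400489, mm10) had 10 UMIs in 5 of 16 slie/slie injured members and 14 UMIs in 7 of 43 control injured members. That is 203 CPM in slie/slie and 82.5 CPM in control, where the other filtered cells had 0 and 0.777 CPM. Clec10a, a galactose-binding lectin of cDC2 and of monocyte-derived cells, had 12 UMIs in 4 slie/slie members and 83 UMIs in 20 control members, 243 and 489 CPM. Zbtb46, a transcription factor of conventional dendritic cells, had no UMI in either library, which at 3 counts allows up to 60.8 CPM in slie/slie and 17.7 CPM in control. Flt3 was thus detected in a minority of members, and the cells are called class II-rich below rather than dendritic.

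The 20 genes that led the members over the other cells of the same library, by the lower of the slie/slie injured and control injured folds, are a description of the same cells. They include genes of antigen loading (H2-DMb2, H2-DMb1, H2-DMa), lectins (Cd209a, Cd209d, Clec10a), the amino acid oxidase Il4i1, the protease Napsa, the oxysterol receptor Gpr183, the integrin chain Itgb7 and the T cell contact molecules Cd83 and Cd86. The lower fold was 97.3 for Cd209a and H2-DMb2, 31.9 for H2-DMa, 25.6 for Napsa and 14.2 for Cd86. Both folds of 97.3 rest on 4 slie/slie UMIs against 0 CPM in the other slie/slie cells, so the added count sets their size. For Cd209a those 4 UMIs lay in 1 cell, and for H2-DMb2 in 3 cells. Napsa, on no list used here, had 20 UMIs in 7 slie/slie members and 156 UMIs in 24 control members. Plet1, at a lower fold of 86.5, came from 1 cell in each library. Gpr171, P2ry10, Klrd1, Ifi205, Pkib, Bcl2a1d and Plbd1 complete the list.

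Single members differed in which dendritic genes they held. A cDC1 pattern, at least 2 different genes of an 11-gene list, was seen in 3 of 16 slie/slie injured members (18.8%, 4.05 to 45.6%) and in 8 of 43 control injured members (18.6%, 8.39 to 33.4%). Of these, 1 of the 3 slie/slie cells and 5 of the 8 control cells also held at least 2 monocyte genes, described below. In control injured, Irf8 was at 106 CPM in members and 116 CPM in C1q-expressing macrophages, and Naaa at 194 and 35.8 CPM. In slie/slie, the cell with 13942 UMIs had 3 of Flt3, 8 of Irf8, 10 of Batf3 and 8 of Naaa, an amidase gene high in cDC1. A slie/slie cell with 1908 UMIs had 3 of Flt3, 7 of Irf8, 4 of Naaa and 2 of Wdfy4, which cDC1 need for cross-presentation. In control, a cell with 13647 UMIs had 3 of Flt3, 8 of Irf8, 16 of Naaa and 2 of Clec9a, the cDC1 receptor for dead cells. That control cell also had 16 of the cDC2 marker Clec10a and 5 of Epcam, so its genes were not of the cDC1 type alone. The slie/slie cell with 13942 UMIs is the 1 that also held monocyte genes, 16 UMIs over 3 genes, of which Lyz2 gave 14.

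The cDC2 list, 9 genes, gave a different count in each library. At least 2 of its genes were present in 3 of 16 slie/slie injured members (18.8%, 4.05 to 45.6%) and in 23 of 43 control injured members (53.5%, 37.7 to 68.8%). Among members with at least 1000 UMIs the counts were 2 of 10 in slie/slie and 21 of 30 in control. In the collagen-rich cells of the same libraries, which should lack these genes, they were 0 of 86 and 3 of 222 (median 945.5 and 1891.5 UMIs). The cDC2 cells overlap those with at least 2 monocyte genes, described below: 2 of the 3 slie/slie cells and 21 of the 23 control cells held both. Several cDC2 list genes are not specific to dendritic cells, since in control injured Sirpa was at 371 CPM in members and 413 CPM in C1q-expressing macrophages and Clec4a2 at 383 and 356 CPM. Cd209a was carried by few cells, with 4 UMIs in 1 slie/slie cell of 733 UMIs and 48 UMIs in 7 control cells, among them 18 in a cell of 11355 UMIs and 12 each in cells of 10626 and 5552 UMIs.

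High counts of mature dendritic cell genes lay in few cells. A slie/slie cell with 4534 UMIs had 16 of Fscn1, an actin bundling protein of migrating dendritic cells, 12 of Il4i1, 6 of Socs2 and 1 of Ccr7, the receptor that guides dendritic cells to lymph nodes. In control, a cell with 14737 UMIs had 2 of Fscn1, 38 of Il4i1, 11 of Socs2 and 2 of Ccr7, and a cell with 1430 UMIs had 9 of Fscn1. At least 2 of Fscn1, Il4i1, Socs2 and Ccr7 were present in 2 of 16 slie/slie members and 3 of 43 control members. These genes were rare outside such cells: Ccr7 had 1 UMI over all slie/slie members and 2 over all control members. At least 2 genes of the 21-gene mature list were present in 9 of 16 slie/slie members (56.3%) and 24 of 43 control members (55.8%). The same count was 20 of 86 (23.3%) and 73 of 222 (32.9%) in collagen-rich cells. Fscn1 itself had UMIs in 25.6% and 35.6% of those collagen-rich cells.

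Langerhans and plasmacytoid genes were scarce. A slie/slie cell with 1049 UMIs had 2 of Cd207 (langerin) and 1 of Epcam, with no Clec10a. The Langerhans list summed to 6 UMIs in slie/slie members and 20 in control members. The plasmacytoid list summed to 19 and 51 UMIs, of which the lineage genes Siglech and Ccr9 gave 0 in both libraries. Of the 19 slie/slie UMIs 16 lay in a cell of 3506 UMIs, the member nearest the class II limit at 1.25%. That cell had no UMI of H2-Aa, H2-Eb1 or Flt3.

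Genes of the monocyte lineage were found in a smaller share of slie/slie than of control members. At least 2 of 11 monocyte genes were present in 5 of 16 slie/slie members (31.3%, 11 to 58.7%) and in 30 of 43 control members (69.8%, 53.9 to 82.8%). With at least 1000 UMIs per cell, a limit added after the data were seen, the counts were 4 of 10 and 24 of 30. In collagen-rich cells of the same libraries they were 8 of 86 (9.30%) and 44 of 222 (19.8%). The summed level of the list was 6662 CPM in slie/slie and 9679 CPM in control, a ratio of CPM, with 1 count added to each sum as for every fold below, 1.45-fold lower in slie/slie (1.29 to 1.64). A single slie/slie cell held 76.9% of the slie/slie sum, and without it the log2 ratio was −2.15 in place of −0.54. Among members at 2% class II or more, in contrast, the log2 ratio of the summed list was −0.021. That set keeps the deepest slie/slie cell, with 253 monocyte UMIs. It leaves out the control cells of 16857 and 13471 UMIs, with 292 and 414 monocyte UMIs. The shares of cells with at least 2 monocyte genes stayed within the intervals above in that set.

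Ccr2 (chr9:124101950-124113557, mm10), the receptor for the monocyte attractant Ccl2, had 15 UMIs in 4 of 16 slie/slie members and 205 UMIs in 23 of 43 control members. This was 304 CPM in slie/slie and 1208 CPM in control, 3.75-fold lower in slie/slie (2.35 to 7.23). Of the slie/slie UMIs 10 of 15 lay in the deepest cell, whereas control cells with 52, 40 and 20 UMIs stood beside many with few. With each cell thinned to 500 UMIs, 11.6% of slie/slie members and 31.1% of control members had a Ccr2 UMI, against 25% and 53.5% before thinning, and all members had that depth. Collagen-rich cells had a Ccr2 UMI in 0 and 0.901% of cells.

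Ms4a6c (chr19:11469366-11482192, mm10), a membrane protein gene of monocytes and macrophages, had 6 UMIs in 3 slie/slie members and 197 UMIs in 24 control members. Its level was 122 CPM in slie/slie and 1161 CPM in control, 8.23-fold lower in slie/slie (4.31 to 26.3). Ms4a6d, of the same family, had 1 UMI in slie/slie and 63 UMIs in control, a ratio 9.31-fold lower (3.17 to 735). Thinned to 500 UMIs, 3.93% of slie/slie and 26.8% of control members had an Ms4a6c UMI. Across all alternatives run, the log2 ratio of Ccr2 stayed between −2.83 and −1.37 and that of Ms4a6c between −3.36 and −2.16.

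The other monocyte genes were less even. Lyz2, lysozyme, had 205 UMIs in 5 slie/slie members and 963 UMIs in 24 control members, 1.36-fold lower in slie/slie (1.17 to 1.60), and 154 of the 205 lay in 1 cell. Among members at 2% class II or more the log2 ratio of Lyz2 was 0.043. Cd14, which binds lipopolysaccharide for Tlr4, had a ratio 6.52-fold higher in slie/slie (73 against 38 UMIs), but 72 of the 73 came from the deepest cell, and without that cell the log2 ratio was −2.02. Of the 9 measured monocyte genes, those with at least 20 UMIs over both libraries, 1 was higher and 4 were lower by 1.5-fold or more, with a median log2 ratio of −0.47. Over all 1697 genes measured the median was −0.01, 18.2% were higher and 22.4% were lower by that fold. The counting interval of the ratio excluded 1 for 6.6% of genes as higher and for 8.84% as lower.

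The injured libraries also differed in how many other myeloid cells they held. By like rules there were 4 C1q-expressing macrophages and 4 monocytes without C1q among 246 slie/slie cells, against 52 and 53 among 751 control cells. Lyz2 had UMIs in 2.33% of collagen-rich cells in slie/slie and 9.91% in control. Their part in the monocyte result was not tested.

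**Figure D2:**
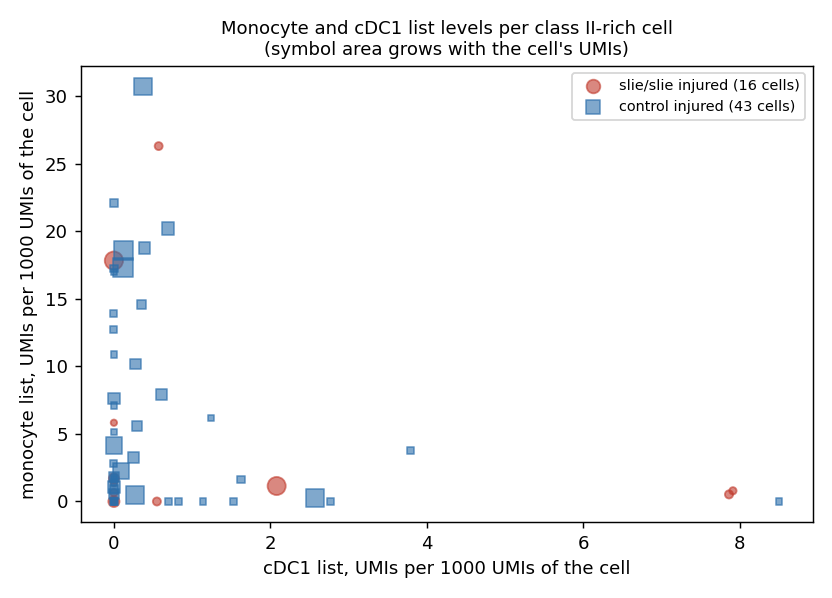
Monocyte list (vertical) against cDC1 list (horizontal), both as UMIs per 1000 UMIs of the cell, 1 symbol per class II-rich cell of the slie/slie injured (16) and control injured (43) libraries, with area growing with the cell's UMIs. Cells at the top of 1 axis lie near 0 on the other, and the monocyte list has a median of 0.59 and a maximum of 26.3 per 1000 in slie/slie, against 3.28 and 30.7 per 1000 in control.

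Some of the largest single folds among named genes were also monocyte or macrophage genes held by few cells. The 10 genes lowest in slie/slie among those with at least 30 UMIs were Vcan, Ccl6, Cwc22, Thbs1, Ms4a6d, Ms4a6c, Emb, Tpd52, Ccr2 and Ifngr1. Vcan, a matrix proteoglycan that monocytes transcribe, had 0 UMIs in slie/slie and 70 in control, at least 6.79-fold lower against a floor of 3 counts, and 38 of the 70 were in 1 cell. Vcan is also a fibroblast gene, with UMIs in 40.7% and 59.5% of collagen-rich cells of slie/slie and control. The chemokine Ccl6 had 3 and 206 UMIs, and 184 of the 206 were in the same control cell of 16857 UMIs. Cwc22, a splicing factor gene, had 1 UMI in slie/slie and 73 UMIs spread over 22 control cells, 10.8-fold lower (3.69 to 850). Cwc22 was also found in fewer collagen-rich cells of slie/slie, 5.81% against 33.3% in control, so the difference is not particular to class II-rich cells. The interferon-γ receptor chain gene Ifngr1 had 17 UMIs in slie/slie and 191 in control, 3.10-fold lower (1.99 to 5.73).

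The 10 genes highest in slie/slie were Spp1, Fdps, Cd9, Ass1, Il1rn, Cd14, Clec4e, Cldnd1, Basp1 and H2afz, and most came from 1 cell. The deepest slie/slie member, with 14186 UMIs, held all 139 UMIs of Spp1 (osteopontin), all 87 of Apoe, all 52 of the lectin Clec4e and all 30 of the IL-1 receptor antagonist gene Il1rn. It had no Flt3 UMI. Leaving this cell out, an alternative added after the data were seen, turned Spp1 to a log2 ratio of −0.31, Clec4e to −2.59 and Il1rn to −1.73. The macrophage list behaved alike: 5022 CPM in slie/slie and 2156 CPM in control, 2.33-fold higher (1.97 to 2.74), with 97.2% of the slie/slie UMIs in that cell and a log2 ratio of −3.25 without it. Fdps had 20 of its 24 slie/slie UMIs in 1 cell, Ass1 35 of 39 and Cd9 23 of 30. No statement on slie/slie members in general can rest on these genes.

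Class II peptide loading genes outside the rule were mostly lower in slie/slie. The class II pathway list summed to 6541 CPM in slie/slie and 8518 CPM in control, 1.30-fold lower (1.15 to 1.47). Of its 10 measured genes 1 was higher and 6 were lower, against 18.2% and 22.4% of all measured genes, with a median log2 ratio of −0.69. H2-DMa had 17 UMIs in 8 of 16 slie/slie members and 145 UMIs in 31 of 43 control members, 2.36-fold lower (1.5 to 4.38). H2-DMb1, whose promoter is shown above, had 32 UMIs in 11 slie/slie members and 195 UMIs in 32 control members, 1.73-fold lower (1.22 to 2.66). H2-DMb2 had 4 UMIs and 51 UMIs, 3.03-fold lower (1.36 to 14.1), though H2-DMb1 and H2-DMb2 are close copies whose reads can be hard to assign. Over all alternatives the log2 ratio stayed between −1.43 and −0.88 for H2-DMa, between −0.98 and −0.38 for H2-DMb1 and between −2.26 and −0.57 for H2-DMb2. The class II genes of the rule chose the members, so their levels add nothing to this result. Their median share was lower in slie/slie, as given above, but their summed levels went both ways. H2-Aa (13649 CPM in slie/slie, 11499 in control) and H2-Eb1 (6176 and 5856) were higher in slie/slie. H2-Ab1 (6278 and 6539) and Cd74 (29222 and 31688) were lower.

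The lysosomal genes of the pathway were less uniform. Ifi30, the thiol reductase that opens disulfide bonds of antigens, had 65 UMIs in slie/slie and 365 in control, 1.61-fold lower (1.25 to 2.16). Ctss, cathepsin S, which trims the invariant chain, had 128 UMIs in 14 slie/slie members and 388 UMIs in 37 control members, 1.14-fold higher with an interval of 0.921 to 1.39. Ciita, the master regulator of class II transcription, had 2 and 15 UMIs, under the limit for a fold.

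Class I genes did not differ beyond counting error between the injured libraries. The class I list had 7898 CPM in slie/slie and 7888 CPM in control, a ratio of 1.00 (0.892 to 1.12), and 10 of its 11 measured genes were within 1.5-fold. H2-K1, a class I heavy chain, had 51 UMIs in slie/slie and 158 in control, a ratio of 1.12 (0.793 to 1.53). With TMM scaling, which moved the median of all genes to −0.20, the class I list was at a log2 ratio of −0.19, about that median. TMM also moved the share of higher genes among those called from 44.8% to 28.6%.

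**Figure D3:**
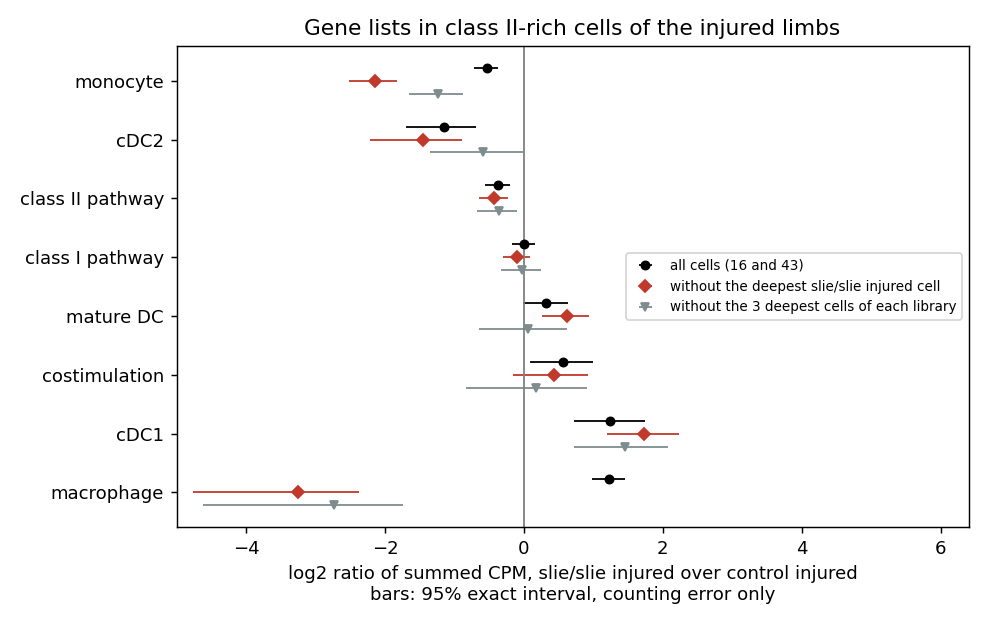
Log2 ratio of summed CPM, slie/slie injured over control injured members (horizontal), for 8 gene lists (rows), with 95% exact intervals for counting error, for all members, without the deepest slie/slie cell and without the 3 deepest cells of each library. The cDC1 list lies right of 0 and the monocyte and class II pathway lists left of it in all 3 sets, while the macrophage list changes from 1.22 to −3.25 without 1 cell.

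The cDC1 and cDC2 lists gave ratios on opposite sides of 1 in the summed members. The cDC1 list had 56 UMIs, 1134 CPM, in slie/slie and 82 UMIs, 483 CPM, in control, 2.36-fold higher in slie/slie (1.64 to 3.34), and 51.8% of the slie/slie UMIs lay in the cell with 13942 UMIs. Thinned to 500 UMIs per cell the log2 ratio was 0.35 in place of 1.24. Its 2 measured genes were both higher, against 18.2% of all measured genes. Irf8, the transcription factor that cDC1 need, had 17 UMIs in 4 slie/slie members and 18 UMIs in 8 control members, 3.26-fold higher (1.57 to 6.68), and Naaa had 15 and 33 UMIs, 1.62-fold higher with an interval of 0.789 to 2.96. As given above, the share of cells with the cDC1 pattern was nearly equal, 18.8% in slie/slie and 18.6% in control. Of these cells 1 of 3 in slie/slie and 5 of 8 in control also held monocyte genes. Flt3 was 2.52-fold higher with an interval of 0.976 to 5.94.

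The cDC2 list had 39 UMIs, 790 CPM, in slie/slie and 303 UMIs, 1785 CPM, in control, 2.21-fold lower in slie/slie (1.62 to 3.24). Of 5 measured genes 4 were lower, against 22.4% of all measured genes. Sirpa, an inhibitory receptor of myeloid cells, had 4 UMIs in 2 slie/slie members and 63 UMIs in 21 control members, 3.72-fold lower (1.70 to 17.3). Clec10a was 1.88-fold lower (1.09 to 4.05) and Cd209a, the mouse homologue of DC-SIGN, 2.85-fold lower. Thinned to 500 UMIs per cell the list was at a log2 ratio of 0.10, with Clec10a at 0.84 and Cd209a at 0.94, so these 3 directions depend on how cells of unequal depth are weighted. Without the 3 deepest cells of each library the list was at −0.59.

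Few genes of contact with T cells had enough UMIs for a fold. The costimulation list had 1195 CPM in slie/slie and 819 CPM in control, 1.47-fold higher (1.06 to 1.99), with 3 of 4 measured genes higher and a median log2 ratio of 0.99. The other 7 of its 11 genes had too few UMIs, among them Cd40 with 1 UMI in slie/slie and 14 in control and Icosl with 0 and 12, which lean the other way. Cd83, which stabilises class II at the cell surface, had 17 UMIs in 6 slie/slie members and 21 UMIs in 7 control members, 2.81-fold higher (1.38 to 5.54). Cd86, a ligand of CD28, had 16 UMIs in 8 slie/slie members and 29 UMIs in 14 control members, 1.95-fold higher with an interval of 0.962 to 3.61. The log2 ratio stayed between 1.06 and 1.72 for Cd83 and between 0.69 and 1.84 for Cd86 over the alternatives run. The mature list was 2268 CPM in slie/slie and 1826 CPM in control, a ratio of 1.25 (0.992 to 1.55), with 3 of 8 measured genes higher and none lower. For the costimulation and mature counts, the shares over all measured genes were 18.2% higher and 22.4% lower. Fscn1 was 3.80-fold higher in slie/slie (1.92 to 7.66) with 16 of 20 UMIs in 1 cell.

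**Figure D4:**
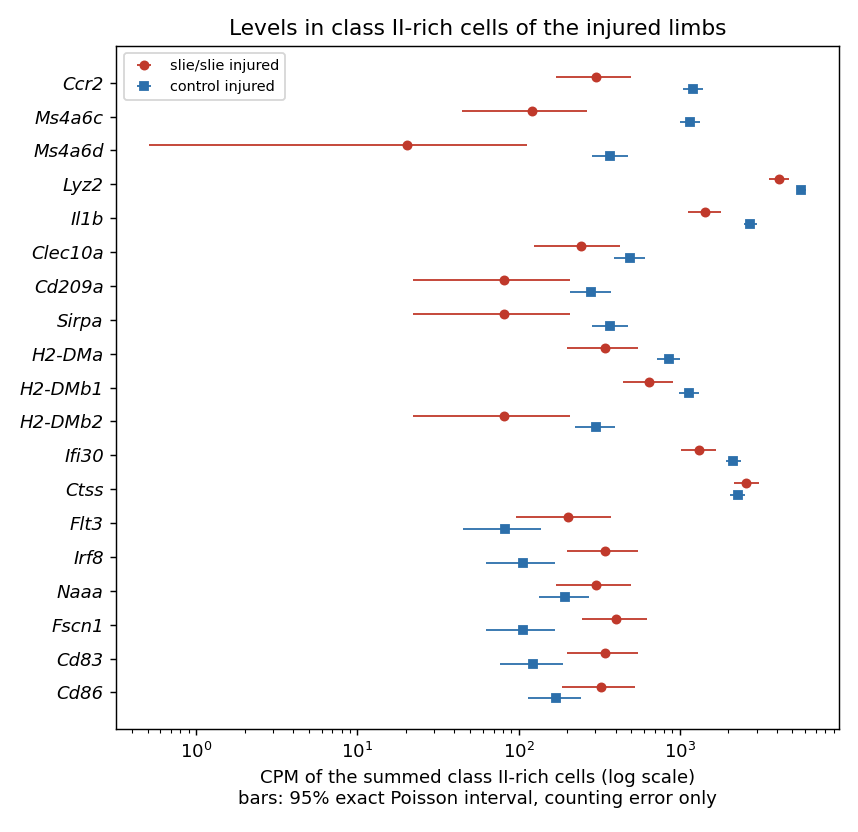
CPM (horizontal, log scale) of 19 list genes in the summed class II-rich cells of the slie/slie injured (upper symbol) and control injured (lower symbol) libraries, with 95% exact Poisson intervals for counting error. The intervals of Ccr2 and Ms4a6c are apart with slie/slie lower, those of Irf8 and Cd83 are apart with slie/slie higher, and those of Ctss and Naaa overlap.

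Transcription factor and growth factor receptor genes of dendritic cells went both ways. Of 12 measured genes 5 were higher and 3 lower, against 18.2% and 22.4% of all measured genes, and the list ratio was 1.22. Id2, an inhibitor of E proteins that dendritic cells need, had 25 UMIs in slie/slie and 24 in control, 3.58-fold higher (1.96 to 6.55), with 20 of the 25 in 1 cell. Runx3, a factor of dendritic cell and lymphocyte development, was 2.29-fold higher (1.02 to 4.72). Zeb2, a repressor active in monocytes and cDC2, had 6 UMIs in 2 slie/slie members and 67 UMIs in 18 control members, 2.83-fold lower (1.42 to 9.17).

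Cytokine genes were held by few cells. Il1b, the IL-1β gene, had 71 UMIs in 8 of 16 slie/slie members and 466 UMIs in 27 of 43 control members, 1438 and 2745 CPM, 1.89-fold lower in slie/slie (1.48 to 2.49). In slie/slie 57 of the 71 UMIs lay in the cDC1-patterned cell of 13942 UMIs, and in control cells of 16857, 15733, 10626 and 13647 UMIs had 127, 113, 69 and 48. Thinned to 500 UMIs the log2 ratio of Il1b was 0.35, and the shares of cells with a UMI were 31.6% in slie/slie and 35.9% in control. The cytokine and chemokine list summed to a ratio 1.53-fold lower in slie/slie (1.32 to 1.80), with 3 of 9 measured genes higher and 5 lower, against 18.2% and 22.4% of all measured genes. A single slie/slie cell held 89 of its 196 slie/slie UMIs, and a single control cell 364 of its 1038 control UMIs. With cells weighted equally the list was at 2696 CPM in slie/slie and 3640 CPM in control. Tgfbi, a matrix protein gene, was 2.20-fold lower (1.42 to 3.92), with 19 UMIs in 5 slie/slie members and 150 in 22 control members. Ccl17, Il12b, Il6, Il10 and Il23a, products of activated dendritic cells, had no UMI in either library, and Ccl22 had 1 UMI in slie/slie and 0 in control.

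Receptor and migration genes were 1.56-fold lower as a list (1.24 to 2.04), with 1 of 6 measured genes higher and 4 lower. Ccr2 made up 205 of the 418 control UMIs and 15 of the 77 slie/slie UMIs, so the summed ratio largely repeats the Ccr2 result above. Pattern recognition genes had a list ratio of 1.10, with 3 of 10 measured genes higher and 4 lower. Beside the counts of the migration and pattern recognition lists, 18.2% of all measured genes were higher and 22.4% lower. The deepest slie/slie cell held 303 of the 419 slie/slie UMIs of this list (72.3%). With cells weighted equally its level was 5012 CPM in slie/slie and 6442 CPM in control. Fcer1g, the signalling chain of Fc receptors and lectins, had 82 UMIs in slie/slie and 490 in control, 1.72-fold lower.

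Ddr2 (chr1:169972307-170110762, mm10), the gene deleted in slie mice, had no UMI in any class II-rich cell of either injured library, which at 3 counts allows up to 60.8 CPM in slie/slie and 17.7 CPM in control. In collagen-rich cells of the same libraries it was found in 0% of slie/slie and 23.9% of control cells. Of the other collagen receptors, Ddr1 was low too, with 0 UMIs in slie/slie and 4 in control. Itgb1, the integrin β1 chain, had 13 UMIs in slie/slie and 70 in control. In control it was not low, at 412 CPM in members and 455 CPM in C1q-expressing macrophages. Mrc1, the mannose receptor that also takes up collagen, had 1 UMI in slie/slie and 40 UMIs in 10 control members, 5.96-fold lower (1.97 to 471).

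Genes of other cell types were near 0 in members. B cell genes besides Cd79a summed to 0 UMIs in slie/slie members and 2 in control members, with Ms4a1 and Pax5 at 0. T and NK cell genes had 0 and 1, mast cell genes 0 and 1, fibroblast genes outside the rule 0 and 11, keratinocyte genes 2 and 6, and endothelial genes outside the rule 1 and 0. Skeletal muscle genes had 0 in both. Neutrophil genes outside the rule had 0 in slie/slie and 19 in control, 17 of them Trem1, which monocytes transcribe as well. Hemoglobin and related red cell genes were the exception, with 29 UMIs in 14 slie/slie members and 74 UMIs in 34 control members.

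Some members had almost no mitochondrial RNA. Fewer than 0.5% of UMIs were mitochondrial in 7 of 16 slie/slie members and 17 of 43 control members, against 61.8% and 50.5% of all filtered cells in these libraries. Most of these members were shallow, with a median of 779 UMIs in slie/slie (538 to 4534) and 878 in control (547 to 16857), against 1820 and 3552 for the other members. Many were also poor in Malat1, a nuclear RNA looked at after the data were seen: it had no UMI in 6 of the 7 slie/slie cells and in 10 of the 17 control cells. Among the other members it had none in 2 of 9 slie/slie cells and 1 of 26 control cells. The low-mitochondrial slie/slie cells held 6926 CPM of the mature list against 1091 CPM in the other slie/slie members, mainly from the cell of 4534 UMIs with 16 of Fscn1. In control the same values were 2259 and 1723 CPM. Without these cells the mature list had a log2 ratio of −0.63 in place of 0.32.

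**Figure D5:**
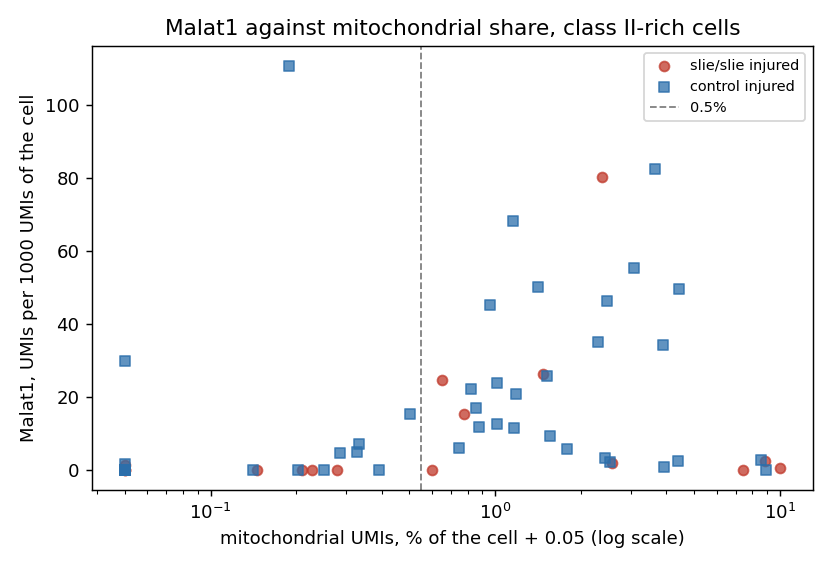
Malat1 UMIs per 1000 UMIs of the cell (vertical) against the mitochondrial percent of UMIs plus 0.05 (horizontal, log scale), 1 point per class II-rich cell of the slie/slie injured and control injured libraries, with 0.5% dashed. Left of the line most cells of both libraries lie at 0, 6 of 7 in slie/slie and 10 of 17 in control, and right of it few do.

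Only 1 class II-rich cell came from an uninjured limb, a slie/slie cell with 1231 UMIs and 9.59% mitochondrial UMIs. It had 15 UMIs of H2-Aa, 26 of Cd74, 4 of Irf8 and 1 each of Batf3, Clec9a and Ccr2, and no UMI of Flt3 or Clec10a. With 1 cell in slie/slie uninjured and 0 in control uninjured, no level was compared between injured and uninjured limbs.

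Within the control injured library the members could be set beside 52 C1q-expressing macrophages, which passed the same limits on other cell types but had at least 3 C1q UMIs. The classes were cut from these readouts, so the values are descriptions. Members had more of the loading genes: H2-DMa was at 854 CPM in members and 127 CPM in macrophages, and H2-DMb1 at 1149 and 143 CPM. Macrophages had more of the proteases, with Ctsb at 389 CPM in members and 3837 CPM in macrophages, Lgmn at 212 and 1414 CPM and Ctss at 2286 and 4520 CPM. Flt3 and Cd209a had 14 and 48 UMIs in members and 0 in macrophages. The mature list was at 1826 CPM in members and 391 CPM in macrophages, and the macrophage list at 2156 and 18842 CPM.

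Monocyte genes did not sort members from macrophages in the same way. Ccr2 was at 1208 CPM in members and 353 CPM in macrophages, whereas Lyz2 was at 5673 and 11703 CPM and Ms4a6c at 1161 and 816 CPM. Il1b was at 2745 CPM in members and 187 CPM in macrophages, and Ifitm1, an interferon-induced membrane protein gene, at 4253 and 198 CPM. The 53 monocytes without C1q of the same library had under 1% class II. They were chosen by at least 3 UMIs of Lyz2, Csf1r, Adgre1, Cd68, Ccr2, Ly6c2, Fcgr1 and Ms4a6c together. The class also held 5986 CPM of keratinocyte genes and 3861 CPM of neutrophil genes outside the rule, against 35.3 and 112 CPM in members. It had 3213 CPM of Il1b, 907 CPM of Ccr2, 675 CPM of Ifitm1 and 850 CPM of the mature list. High Il1b was thus shared by members and this mixed class, whereas the Ccr2 level of the class partly follows from how it was chosen. The slie/slie injured library held 4 such macrophages, too few for the same description.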

How the data were processed

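The deposited files are 1 matrix of raw UMI counts per library, over 27998 genes. Per the file headers they come from Cell Ranger 5.0.1, and per the submitters' processing notes the build was mm10; no source used here names the annotation behind the counts. The slie/slie injured and uninjured libraries had 375 and 289 barcodes with 1493147 and 1540053 UMIs, and the control injured and uninjured libraries 842 and 1075 barcodes with 4515174 and 579790 UMIs. The count values were used as deposited.

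Members were found by the stated rule in each library. Doublets were scored with Scrublet in scanpy 1.11.5 and kept. UMIs were summed over members, scaled to CPM and compared as ratios after adding 1 count to each sum. Genes with at least 20 UMIs over both injured libraries were measured, and those at 1.5-fold or more were called higher (18.2% of 1697) or lower (22.4%). Counting error excluded a ratio of 1 for 6.6% as higher and 8.84% as lower. CPM have exact Poisson, shares Clopper-Pearson and ratios exact conditional binomial intervals at 95%, for counting error only. UMIs limit PCR duplicates, but cells and mice of 1 library are no replicates, so there are no p-values. Fewer than 10 members in a library precluded folds.

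The members and the 28 gene lists were chosen with earlier results of these data known. Beside list members, the genes named are the 10 highest and 10 lowest ratios (ranked by the interval bound nearest 1, at least 30 UMIs, leaving out genes of the rule, predicted genes, Xist, Y-linked genes and those for hemoglobin, ribosomal proteins and mitochondrial RNA), the 20 leading genes, and Ddr2. Malat1 and the single cells described were chosen after their values were seen. Gene coordinates are GENCODE's for mm10. TMM factors came from edgeR 4.0.16 in R 4.3.3; other steps used Python 3.11.15, numpy 2.4.6, scipy 1.17.1, pandas 2.3.3 and matplotlib 3.10.9. The ratios and intervals were tested on simulated data with known folds, drawn as independent Poisson counts per gene. That simulation held no differences between cells, so it checks the calculation only. It cannot show that the intervals hold where few cells carry most UMIs. Alternatives changed the class II limit, the cell filters, the scaling, the depth and the count minimum.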

Additional observations from a re-analysis of the deposited data

How the results depend on the processing

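Of 236 recomputed counts, shares and list ratios 202 stayed within their error, 30 left it and 4 reversed; of 1512 values for 108 named genes 1343 stayed, 138 moved and 31, in 19 genes, reversed. Removing called doublets, shared barcodes or cells above 10% mitochondrial UMIs took out no member. Gene values and list ratios under these settings were thus fixed in advance, with 108 gene values counted as stayed under each. Causes were not tested. Genes lower in slie/slie numbered 231 at 2% class II, 22 in cells thinned to 500 UMIs, 232 without the 3 deepest cells of each library, 753 at 10 UMIs and 104 at 50, and genes higher 197 with TMM, 37 thinned, 759 at 10 UMIs and 80 at 50; fewer cells or a changed minimum set how many genes were measured. Control shares with 2 list genes became 88.5% (monocyte), 69.2% (cDC2) and 73.1% (mature) among cells with at least 0.5% mitochondrial UMIs, and 70% (cDC2) and 73.3% (mature) at 1000 UMIs.

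The monocyte list was at log2 −0.021 with 2% class II, −0.73 with TMM, −0.94 with cells weighted equally, −0.98 thinned, −1.24 without the 3 deepest and −2.15 without the deepest slie/slie cell. The mature list was at −0.63 with at least 0.5% mitochondrial UMIs. TMM put the class II pathway at −0.57 and class I at −0.19. Thinning put class II at −0.60, cDC2 at 0.10, cDC1 at 0.35, costimulation at 1.16 and macrophage at 0.14. Equal weights put class I at −0.18, cDC2 at −0.19 and macrophage at −0.31. Without the 3 deepest, cDC2 was at −0.59 and macrophage at −2.73; without the deepest slie/slie cell macrophage was at −3.25.

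Genes that reversed were, at 2% class II, Lyz2 (0.043). With equal weights they were Cd209a (0.72), Clec10a (0.23), Clec4d (0.020) and Cxcl16 (−0.88). Thinned, they were Thbs1 (0.43), Cd209a (0.94), Clec10a (0.84), Csf2rb (0.43), Clec4d (0.10), Il1b (0.35), Ltb (1.43), Jun (0.84), Gpi1 (0.011) and Gapdh (−0.54). Without the 3 deepest they were Il1rn (−0.59), H2afz (−0.19), Clec4e (−0.94), Cd14 (−1.30), Clec10a (0.34), Clec4n (−1.08), Cxcl16 (−0.65), Jun (0.67) and Gapdh (−0.19). Without the deepest slie/slie cell they were Il1rn (−1.73), Spp1 (−0.31), Clec4e (−2.59), Cd14 (−2.02), Clec4n (−2.68), Ccl9 (−0.86) and Gapdh (−0.35). No paired analysis was possible because each group holds 1 library, and no replicate could be left out. The 16 slie/slie cells limit all comparisons.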

Other observations

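The interferon response list summed to 16444 CPM in slie/slie members and 13726 CPM in control members, a ratio of 1.20 (1.10 to 1.30), and nearly all of it came from the Ifitm genes. The slie/slie cell with 13942 UMIs held 505 of the 812 slie/slie UMIs of this list (62.2%). With cells weighted equally its level was 11346 CPM in slie/slie and 10481 CPM in control. The median per cell was lower in slie/slie, 6.90 against 9.09 per 1000 UMIs, so the direction depends on the measure. Ifitm2 had 256 UMIs in slie/slie and 915 in control and Ifitm3 144 and 539, whereas Isg15 had 2 and 9 and Ifit1 0 and 1. Ifitm1 had 362 UMIs in 11 slie/slie members and 722 UMIs in 31 control members, 1.73-fold higher in slie/slie, with 267 of the 362 in 1 cell. Of the list's 5 measured genes 2 were higher and none lower, against 18.2% and 22.4% of all measured genes.

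Glycolysis genes were 1.41-fold higher as a list in slie/slie (1.23 to 1.60), with 3 of 8 measured genes higher and 1 lower. The deepest slie/slie cell held 187 of the 338 slie/slie UMIs of this list. With cells weighted equally its level was 4947 CPM in slie/slie and 4122 CPM in control. Gapdh had 165 UMIs in slie/slie and 330 in control, 1.72-fold higher, but 112 of the 165 lay in 1 cell, and without the deepest slie/slie cell the log2 ratio was −0.35. Immediate early genes were 1.26-fold lower (1.06 to 1.52), with 3 of 10 measured genes higher and 3 lower. Beside the glycolysis and immediate early counts, 18.2% of all measured genes were higher and 22.4% lower. Cycling members were rare: Mki67 had 0 UMIs in slie/slie and 2 in control, and Top2a 0 and 3. The cell cycle list was 1.94-fold higher in slie/slie (1.62 to 2.30), of which the histone gene H2afz gave 180 of 202 UMIs, 114 of them in 1 cell.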
